A study of Mus musculus with 4 samples.

Results

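The 8 long noncoding RNA genes Malat1, Neat1, Meg3, Rian, Mirg, Miat, Gas5 and Snhg11 were found by symbol among the 22863 genes of an RNA-seq table of mouse eyes. Each symbol matched 1 row. The table holds 4 samples, 2 from subjective day and 2 from objective day, all from C3H/f+/+ mice, a melatonin-proficient strain that lacks the retinal degeneration mutation of other C3H mice. Subjective day mice were collected 6 hours after the scheduled lights-on without that light (circadian time 6). The study's methods and other passages give 18 hours in darkness for them, and a single passage gives 30 hours. Objective day mice had light in the morning and then 1 hour of darkness, and were collected at the same hour (zeitgeber time 6). Each sample was a pool of the 4 eyes of a pair of mice, 1 of each sex, so differences between animals within a pool cannot be seen, and the age of these mice was not given in the sources used here. After removal of the anterior eye and lens, the posterior sclera, choroid, retinal pigmented epithelium and retina were processed together. The question was whether levels of these RNAs differed with light pre-exposure at a fixed time of day.

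Long noncoding RNAs are transcripts that act without being translated, many of them inside the nucleus. Malat1 accumulates in nuclear speckles, which store splicing factors, and its neighbour Neat1 is the RNA on which paraspeckles are built. Meg3, Rian and Mirg are transcribed in the same direction from the maternal copy of the imprinted Dlk1-Dio3 region, and Rian and Mirg carry small nucleolar RNAs and microRNAs. Miat, also known as Gomafu, is a nuclear RNA of neurons that was studied early in the retina, whereas Gas5 and Snhg11 are host genes of small nucleolar RNAs.

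Malat1 and Neat1 lie 22035 bases apart on the minus strand of chromosome 19 (all positions on GRCm38). The end sequences of their longest transcripts are shown because the libraries were made from RNA captured by its poly(A) tail, while both long RNAs are known to end by RNase P cleavage at an A-rich stretch of their own sequence. In the GENCODE M21 transcripts, the longest run of A in the last 2000 bases held 12 A in Malat1 (transcript positions 6674-6685 of 6983, chr19:5795924-5796109 for the stretch shown) and 5 A in Neat1 (20761-20765 of 20771, chr19:5824708-5824828). Capitals mark these runs.
Malat1: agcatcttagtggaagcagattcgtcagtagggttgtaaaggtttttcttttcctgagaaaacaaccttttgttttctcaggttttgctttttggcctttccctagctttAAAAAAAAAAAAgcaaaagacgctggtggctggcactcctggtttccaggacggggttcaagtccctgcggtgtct
Neat1: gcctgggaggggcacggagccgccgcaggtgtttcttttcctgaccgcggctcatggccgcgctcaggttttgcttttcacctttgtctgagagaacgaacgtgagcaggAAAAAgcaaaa

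Meg3, Rian and Mirg lie in that order on the plus strand of chromosome 12, with 32.2 kb between Meg3 and Rian and 68.0 kb between Rian and Mirg. RefSeq (GRCm38.p6) places 60 microRNA genes from the start of Meg3 to the end of Mirg, of which 2 were within Meg3, 3 within Rian and 14 within Mirg. Mature microRNAs whose hairpins overlap an exon of Meg3 or Mirg are shown as the products carried by the transcripts that were counted; the libraries did not measure them as mature RNAs. Seeds (bases 2 to 8) are in capitals, and the 20 mature sequences of such hairpins had no seed in common.
mmu-miR-770-5p: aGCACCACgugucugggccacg
mmu-miR-134-5p: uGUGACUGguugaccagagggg
mmu-miR-485-3p: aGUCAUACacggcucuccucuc
mmu-miR-377-3p: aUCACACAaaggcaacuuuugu
mmu-miR-410-3p: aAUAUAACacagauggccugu
miR-770 comes from Meg3 (chr12:109563710-109563731), and the others from Mirg, with miR-134-5p at chr12:109734145-109734166, miR-485-3p at chr12:109734946-109734967, miR-377-3p at chr12:109740553-109740574 and miR-410-3p at chr12:109743764-109743784.

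RefSeq promoter windows (250 bases before and 50 after a start site, GRCm38.p6) were given for 7 of the 8 genes, all but Neat1, in 9 windows. The cAMP response element TGACGTCA, which reads the same on both strands, was searched as the site of CREB, a factor known to respond to neuronal activity. It was present in 2 of the 9 windows, 1 of Meg3 and 1 of Gas5, and in 588 of all 32851 windows (1.79%). Both stretches are shown with the element in capitals, beginning 57 bases before the Meg3 start site (chr12:109540909-109540976, plus strand) and 46 bases before a Gas5 start site (chr1:161035090-161035157, plus strand). A match is a description of the letters only.
Meg3: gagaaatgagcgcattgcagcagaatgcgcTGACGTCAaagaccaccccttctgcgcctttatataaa
Gas5: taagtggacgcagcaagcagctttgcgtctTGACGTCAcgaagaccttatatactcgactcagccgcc

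The measurement is an adjusted read count per gene, scaled by the authors to a common library size, and totals were 33278417 to 35236783 per sample. The median of the values in a fixed narrow range of low values, a rough guide to relative depth, was 0.929 to 1.11. The fixed range kept it from moving far. Genes listed at 0 numbered 442 and 0 at subjective day against 432 and 315 at objective day. Subjective day sample 2 stood apart in Gm26924 and Lars2. These rows were picked after their values were seen and are known to collect ribosomal RNA reads. In that sample they were 2.70 and 2.46 times their values in subjective day sample 1. Against the highest of the other samples they were 1.63 and 1.92 times as high. The summed level of 5 myelin markers, RNAs of brain and optic nerve outside the retina, was also 3971 in subjective day sample 2 and 1574 to 1713 in the other 3 samples. Mitochondrial genes took 6.06 and 6.38% of the total at subjective day against 3.40 and 2.63% at objective day. Of marker lists for the tissue, rod markers had the highest sum in every sample, and none of the 6 rod and 6 retinal pigmented epithelium markers was listed at 0. Although the anterior eye had been removed, lens markers summed to 33024 and 4417 at subjective day and to 40204 and 10750 at objective day. Sample 1 was thus the higher in both conditions. The summed level of cornea epithelium markers separated by condition, with 5331 and 5523 for subjective day against 1617 and 2793 for objective day (log2 difference -1.35). Blood markers separated in the other direction, with 1234 and 1395 for subjective day against 1939 and 2198 for objective day (log2 difference 0.65). The part of these tissues in the results was not tested.

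Levels of the 8 RNAs spanned more than 2 orders of magnitude per kb of exon. Levels between genes were compared as the adjusted count per kb of the union of annotated exons, averaged over the 4 samples. Malat1 was highest at 10683 per kb (8284 to 15271 across samples) and ranked 62 among the genes with an annotated length. Meg3 at 888 per kb (726 to 1010) and Snhg11 at 823 per kb (621 to 966) followed, their ranges overlapped, and their order was reversed when the longest transcript was used as the length (1104 and 1196 per kb). Gas5 was at 250 per kb and Rian at 165 per kb without overlap, but they were at 368 and 372 per kb by the longest transcript. Neat1 at 99.6 per kb and Miat at 79.3 per kb had overlapping ranges, and Mirg was lowest at 21.2 per kb. With a rank of 14707 per kb, Mirg was not among the abundant RNAs of this tissue. If all Neat1 reads came from the short 3004-base transcript, its level would be 689 per kb, and 50-base single reads summed per gene do not tell the long and short forms apart.

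**Figure D1:**
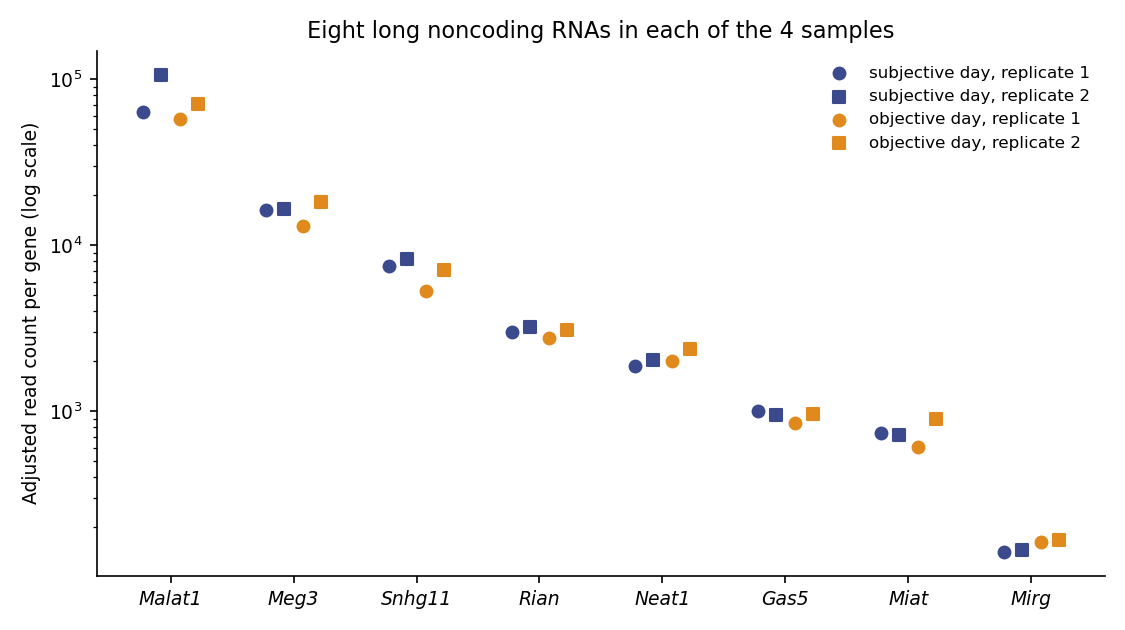
Adjusted read counts per gene (log scale, not divided by length) of the 8 genes in each of the 4 samples, with subjective and objective day samples as separate points. Malat1 lies above all others at 57849 to 106640, and Mirg lies below all others at 142 to 167.

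None of the 8 RNAs passed the test between objective and subjective day. With limma on log2(adjusted count + 1) and Benjamini-Hochberg adjustment at 0.05, 0 of 8 were called, beside 8.51% of the 17784 genes tested. Of all genes tested, 7.45% were called lower at objective day (1325 genes) and 1.06% higher (189 genes). Among the 1501 tested genes of noncoding biotypes, 2.73% were called. At an unadjusted p under 0.05 there was 1 of the 8, Snhg11, and 4512 of all genes. The log2 difference of objective minus subjective day was below 0 in 5 and above 0 in 3, with a median of -0.09, compared with -0.05 over noncoding biotypes and 0.015 over all genes tested. Values of the 2 conditions did not overlap for 2 of the 8, Mirg and Snhg11, and for 56.1% of all genes tested. An exact permutation test of 2 against 2 samples has a smallest possible p of 0.333, and calls therefore depended on limma's pooling of the variance over genes. In such bulk samples, fewer cells of a type and less RNA per cell cannot be told apart.

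**Figure D2:**
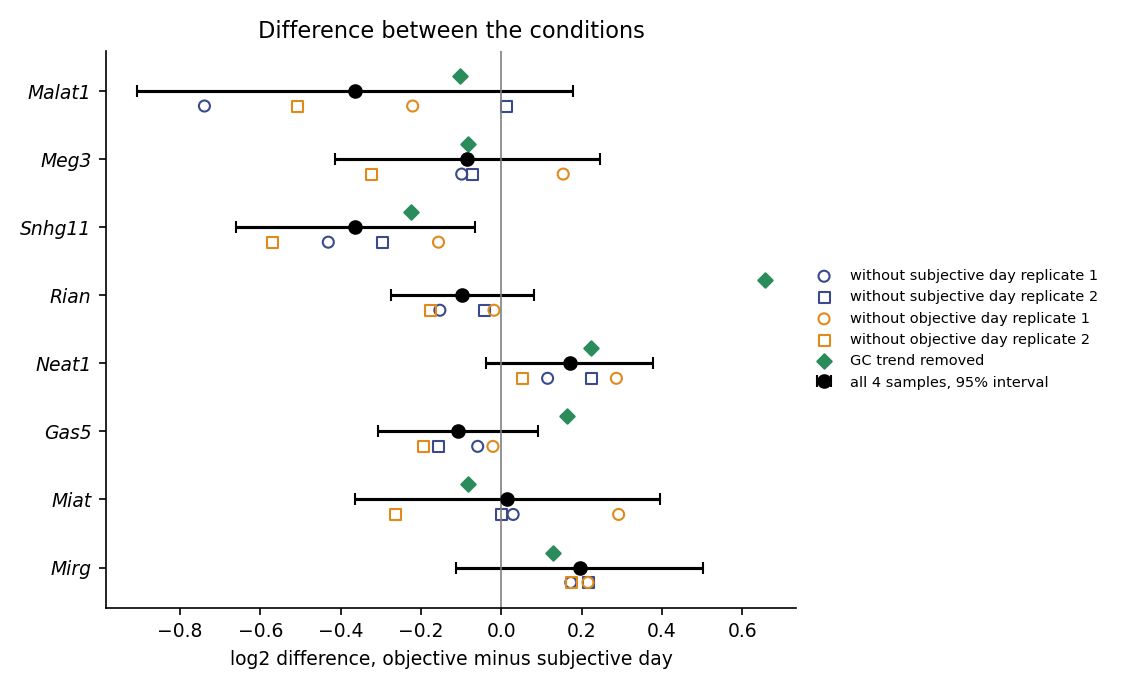
Log2 difference of objective minus subjective day for the 8 genes, with points for the estimate and bars for limma's 95% interval. Only the Snhg11 interval (-0.66 to -0.07) leaves out 0, and that gene did not pass the adjusted test.

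Objective day sample 1 held the lowest value of 6 of the 8 RNAs, all but Neat1 and Mirg, a position it held for 22.2% of all genes and 37.4% of noncoding genes. In all 8, objective day sample 2 was above objective day sample 1, by 1.03 times for Mirg and up to 1.47 times for Miat. Subjective day sample 2 was above sample 1 in 6 of the 8, all but Miat and Gas5. The shares of all genes with these 2 orders were not counted, so neither can be called particular to the 8.

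Malat1 (ENSMUSG00000092341, chr19:5795690-5802672) had adjusted counts of 63369 and 106640 at subjective day against 57849 and 70535 at objective day. One high sample, subjective day sample 2, was 1.68 times its replicate, and the conditions overlapped. The means were 85004 ± 30597 and 64192 ± 8970 (SD, n = 2 each), a log2 difference of -0.36 (SE 0.23, 95% interval -0.91 to 0.18, limma adjusted p = 0.371). The high Malat1 value was in the library with the high ribosomal RNA and myelin values, whose part in it was not tested. Without that library the difference was 0.01 (limma adjusted p = 0.976), whereas without subjective day sample 1 it was -0.74 (limma adjusted p = 0.00924). Of all genes, 15.8% were called without subjective day sample 1. The size of the Malat1 difference thus depended on which subjective day sample was used.

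Neat1 (ENSMUSG00000092274, chr19:5824708-5845478), the paraspeckle RNA, had adjusted counts of 1871 and 2018 at subjective day against 2016 and 2370 at objective day. The highest value was objective day sample 2, and the other objective day sample lay just under the higher subjective day value. The log2 difference was 0.17 (SE 0.089, 95% interval -0.04 to 0.38, limma adjusted p = 0.283), and it was 0.053 without objective day sample 2 and 0.29 without objective day sample 1. Thus Malat1 and Neat1, which are neighbours, had differences of opposite sign, neither of which passed the test. The ratio of Malat1 to Neat1 was 33.9 and 52.8 at subjective day against 28.7 and 29.8 at objective day. These ratios did not overlap, with a log2 difference of -0.53 that was not tested. It was -0.21 without subjective day sample 2 and -0.85 without subjective day sample 1.

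Meg3 (ENSMUSG00000021268, chr12:109541001-109571726), a maternally expressed RNA known as a tumour suppressor in other tissues, had adjusted counts of 16270 and 16590 at subjective day against 13129 and 18279 at objective day. Both subjective day values lay between the objective day values. Its log2 difference was -0.08 (SE 0.14, 95% interval -0.41 to 0.24, limma adjusted p = 0.751), and it was 0.15 without objective day sample 1 and -0.32 without objective day sample 2. The sign for Meg3 was thus set by 1 library.

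Rian (ENSMUSG00000097451, chr12:109603940-109661716), a host of C/D box small nucleolar RNAs, had adjusted counts of 2990 and 3228 at subjective day against 2748 and 3067 at objective day. Only objective day sample 1 lay below both subjective day samples. The log2 difference of -0.10 (SE 0.076, 95% interval -0.28 to 0.08) did not pass the test (limma adjusted p = 0.467), and it was -0.018 without objective day sample 1. Mirg (ENSMUSG00000097391, chr12:109729764-109749460), the microRNA host, had 142 and 146 at subjective day against 163 and 167 at objective day. Both Mirg values of objective day were above those of subjective day, but the log2 difference of 0.19 (SE 0.13, 95% interval -0.11 to 0.50) did not pass either (limma adjusted p = 0.400).

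Within this imprinted region, the 3 noncoding RNAs were also compared with each other inside each sample. The ratio of Rian to Meg3 was 0.184 and 0.195 at subjective day against 0.209 and 0.168 at objective day, with overlap and a log2 difference of -0.013. With objective day sample 1 or 2 left out, the Rian to Meg3 difference was -0.17 and 0.15. Mirg relative to Meg3 was 0.00871 and 0.00881 at subjective day against 0.0124 and 0.00915 at objective day, a log2 difference of 0.28 that was 0.063 without objective day sample 1 and 0.50 without objective day sample 2. Mirg relative to Rian was 0.0474 and 0.0453 at subjective day against 0.0592 and 0.0546 at objective day, without overlap. The log2 difference of 0.29 was not tested. Mirg and Rian differ in GC content (51.9 and 35.8%, longest transcript). With the GC trend removed, their own log2 differences were 0.13 and 0.66, so Mirg no longer had the higher one. Of the 3 coding genes of the same region, 1 was called higher in objective day, beside 1.06% of all genes tested. This was Dio3, the enzyme that inactivates thyroid hormone. Its adjusted counts were 61.9 and 74.0 at subjective day against 148 and 108 at objective day, a log2 difference of 0.89 (SE 0.21, limma adjusted p = 0.0451) that did not pass once the GC trend was removed (0.78, limma adjusted p = 0.153). Dlk1, an inhibitor of Notch signalling, and Rtl1, a retrotransposon-derived gene, had log2 differences of -0.05 and -0.01 and were not called. None of the 7 genes flanking the region was called, beside 8.51% of all genes tested, with a median of 0.11 beside 0.015, including 0.19 for Dync1h1, the dynein heavy chain, and 0.0012 for Ppp2r5c, a phosphatase subunit. Against the same 8.51%, none of the 7 tested neighbours of Malat1 and Neat1 was called either, with a median of 0.11. They included Dpf2, a chromatin factor, at 0.11 and Ltbp3, which binds latent TGF-beta, at 0.19. Median GC content was 53.4% for the flanking genes and 56.2% for these neighbours, against 49.8% over all genes tested. Over all genes, those near 54% and 56% GC had median log2 differences of 0.11 and 0.13.

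Miat (ENSMUSG00000097767, chr5:112213228-112229395) had adjusted counts of 734 and 719 at subjective day against 605 and 890 at objective day. As with Meg3, both subjective day values lay between the objective day values. The log2 difference was 0.01 (SE 0.16, 95% interval -0.37 to 0.39, limma adjusted p = 0.969), which does not show that Miat was equal in the 2 conditions. An antisense gene shares 24.3% of the Miat exon bases, and the described library preparation names no step that marks strand. Without strand, its reads cannot be told apart from those of Miat. Of 3 splicing factors known to bind Miat, 1 was called higher, beside 1.06% of all genes tested. This was Celf3, an RNA-binding protein of neurons, with a log2 difference of 0.24 (limma adjusted p = 0.0469). The call was lost with the GC trend removed (0.14, limma adjusted p = 0.410). The others were not called, with Sf1, a branch point binding protein, at 0.13 and Qk, an RNA-binding protein of glia, at -0.32 (limma adjusted p = 0.0776), and at 0.028 with the GC trend removed (limma adjusted p = 0.918).

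Gas5 (ENSMUSG00000053332, chr1:161034422-161038539), which accumulates on growth arrest and can bind the glucocorticoid receptor, had adjusted counts of 1008 and 942 at subjective day against 852 and 960 at objective day. The conditions overlapped, with objective day sample 1 the lowest. The log2 difference was -0.11 (SE 0.085, 95% interval -0.31 to 0.09, limma adjusted p = 0.477), and it was -0.021 without objective day sample 1. Snhg11 (ENSMUSG00000044349, chr2:158375638-158386145), given a coding biotype in the table, had 7495 and 8230 at subjective day against 5289 and 7046 at objective day. Both objective day values were below both subjective day values. The log2 difference was -0.36 (SE 0.13, 95% interval -0.66 to -0.07, limma adjusted p = 0.129), the smallest adjusted p of the 8. Snhg11 passed without objective day sample 2 (-0.57, limma adjusted p = 0.0163, with 3.85% of all genes called) and without subjective day sample 1 (-0.43, limma adjusted p = 0.0475) but was at -0.16 without objective day sample 1 (limma adjusted p = 0.588).

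Of 14 other tested small nucleolar RNA host genes, none was called, beside 8.51% of all genes tested, and their median log2 difference was -0.0016, beside 0.015. They included Snhg12 at -0.19 and Snhg20 (given in the table as 2810008D09Rik) at 0.29. Small nucleolar RNAs themselves were not measured as such, and 10 of them lie on the same strand and overlap annotated exons of Gas5.

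Base composition moved with the comparison. Across the table, the median log2 difference was -0.64 for genes near 36% GC and 0.13 for genes near 56%, and 6 of the 8 RNAs had less GC (longest transcript) than the median of 49.8% over all genes tested. Rian was the extreme at 35.8% GC. The 134 genes within 1 percentage point of it had a median log2 difference of -0.67, and 93.3% of them were below the Rian value of -0.10. Snhg11 at 44.8% GC was lower than most genes like it, with 11.0% of 1666 such genes below it. Neat1 at 47.3% GC was higher than 88.1% of its 1907 such genes, and Gas5 at 42.3% than 73.6% of its 1275. Malat1, Meg3 and Miat were higher than 24.2, 27.0 and 22.7% of theirs, and Mirg than 79.5%.

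With the GC trend removed in each sample, 211 genes (1.2%) were called, 111 lower and 100 higher, in place of 1325 and 189. Rian was then called, at a log2 difference of 0.66 (limma adjusted p = 0.0181), opposite in sign to the value of -0.10 without the correction. With GC content taken over all transcripts of every gene, the Rian difference was 0.41 (limma adjusted p = 0.0653), and 81 genes were called in place of 211. The Rian call thus depended on how GC content was taken over the genes. Gas5 also changed sign, from -0.11 to 0.16, and so did Miat, from 0.01 to -0.083, without being called. Malat1 was at -0.10 (limma adjusted p = 0.888) and Snhg11 at -0.22 (limma adjusted p = 0.471). With GC content over all transcripts they were at -0.041 and -0.34, so the Snhg11 value also depended on the transcripts used. The part of base composition in these differences was not tested, and the correction would also remove a difference in RNA levels that followed GC content.

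**Figure D3:**
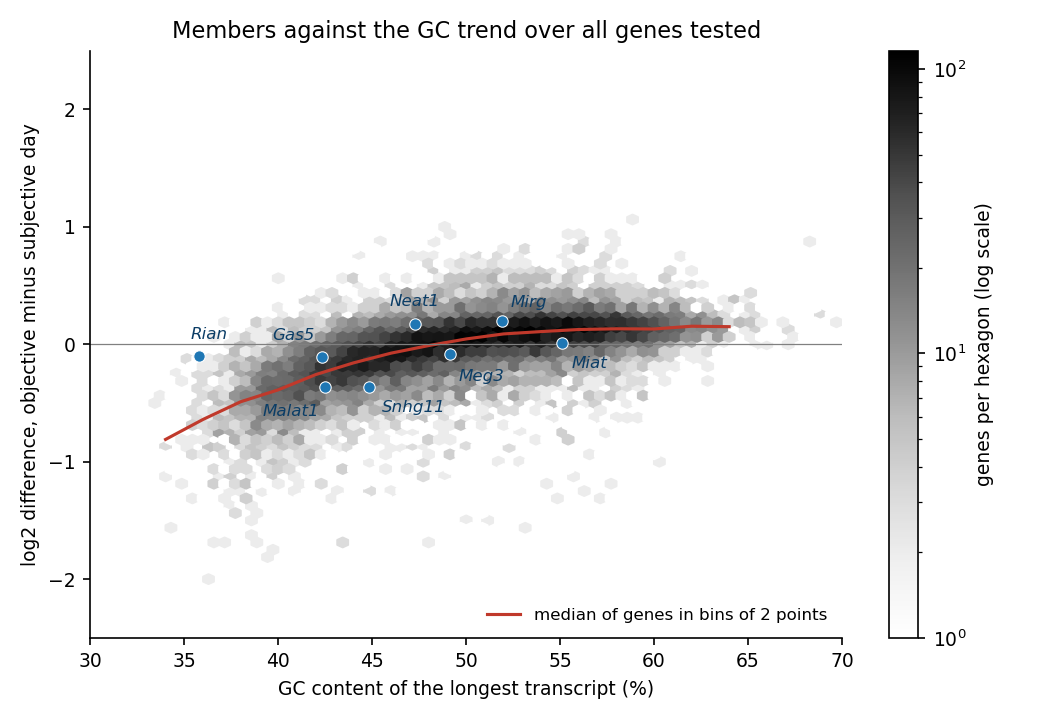
Log2 difference of objective minus subjective day against the GC content (%) of the longest transcript, for 17536 genes as shaded hexagons (22 fall outside the axes), the median in bins of 2 points as a line, and the 8 genes as points. The line is below 0 at low GC content, and Rian, at 35.8% and -0.10, lies well above it.

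Proteins that act with these RNAs were described from lists of known components. Of 19 paraspeckle proteins, 6 fell, 0 rose and 13 were not called in objective day, with a median log2 difference of -0.04, beside 7.45% called lower, 1.06% called higher and a median of 0.015 over all genes tested. Matr3, an RNA-binding protein of the nuclear matrix, was at -0.60 (limma adjusted p = 0.00558), Tardbp, a splicing regulator, at -0.33 (0.0158), and the cleavage factors Nudt21 and Cpsf6 at -0.40 and -0.38 (0.0231 and 0.0312). The proteins that form the core with Neat1 were not called: Nono and Sfpq were each at -0.05, and Pspc1 was at 0.21. With the GC trend removed, 0 of the 19 were called lower and Pspc1 was the 1 gene called, at 0.53 (limma adjusted p = 0.0186). In that setting 1.2% of all genes were called.

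Of 20 nuclear speckle proteins, where Malat1 resides, 9 fell, 0 rose and 11 were not called, with a median of -0.21, beside the same 7.45% of all genes called lower. The splicing regulators Srsf10 and Srsf3 were at -0.68 and -0.46, and the U1 and U2 snRNP-associated proteins Luc7l2 and Sf3b1 at -0.49 and -0.36 (limma adjusted p = 0.00558 to 0.0128). With the GC trend removed, only Srsf2, another splicing regulator, was called in this list, at -0.38 (limma adjusted p = 0.0341). The median was then -0.05, and 1.2% of all genes were called. The members of these lists had a median GC content of 44.7% for paraspeckles and 44.5% for speckles, below the 49.8% of all genes.

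Of 31 other tested long noncoding RNAs, 4 fell and 0 rose, with a median of -0.10, beside 7.45% of all genes and 34 of 1501 genes of noncoding biotypes called lower. Tug1, an RNA first described in the retina as needed for photoreceptor development, had adjusted counts of 4777 and 5210 at subjective day against 3435 and 3319 at objective day (log2 difference -0.56, limma adjusted p = 0.00558). Cyrano, given in the table as 1700020I14Rik and known to direct decay of a microRNA, had 19132 and 20168 at subjective day against 14392 and 13606 at objective day (-0.49, limma adjusted p = 0.00882). The others were C130071C03Rik, the host of a miR-9 gene, at -0.49 and Dleu2, the host of miR-15a and miR-16-1, at -0.43 (limma adjusted p = 0.0125 and 0.0378). None of the 4 was called with the GC trend removed, where Tug1 was at 0.014, Cyrano at -0.06, C130071C03Rik at -0.21 and Dleu2, with its sign reversed, at 0.44 (limma adjusted p = 0.0800).

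**Figure D4:**
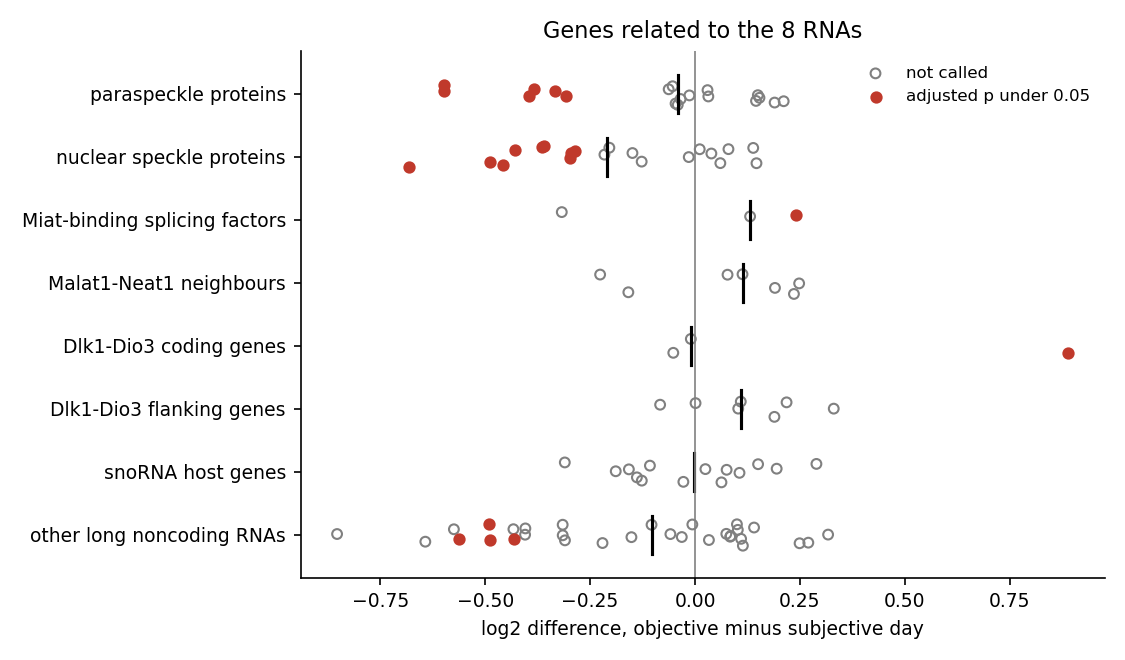
Log2 difference of objective minus subjective day for each tested gene of the 8 related lists, with called genes as filled points and the list median as a vertical bar. Called genes lie below 0 in the speckle, paraspeckle and long noncoding RNA lists, and above 0 for Celf3 and Dio3.

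The genes most like Malat1 over the 4 samples were Rpia, an enzyme of the pentose phosphate pathway, Ttn, the muscle protein titin, and Grik2, a glutamate receptor subunit. Likeness was the root mean square difference of the 4 log2 values after centring on each gene's mean, among 9304 genes with a mean of at least 500, and was 0.081, 0.11 and 0.12. Ttn, with adjusted counts of 5931 and 11284 at subjective day against 5804 and 8156 at objective day, was high in the same sample as Malat1. The genes most like Meg3 were Myoz1, a muscle protein (0.050), Darc, a chemokine receptor of venules (0.066), and Zfp783 (0.068). With 4 samples, such matches are a description of which library was high.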

How the data were processed

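RNA-seq was made from poly(A)-selected RNA of 4 samples on a single lane as 50-base single reads. By the study's methods and the submitters' processing notes, the authors demultiplexed with CASAVA 1.8, aligned to Ensembl release 72 with TopHat2 2.0.9 and Bowtie2 2.1.0, counted reads per gene with HTSeq and tested with edgeR. The low-count filter, normalization method and strand setting were not given in the sources used here. For each gene and sample the authors deposited a signal, the read count brought to a library size shared by all samples (not whole numbers). The raw depth is not known from these values, and the precision is limited by 2 samples per condition, which the study calls biological replicates. The table's fold change, CPM, p-value and FDR columns hold the authors' comparison and were not used.

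The count test that had been planned needs raw counts. Differences were therefore computed in R 4.3.3 by limma 3.58.1, without a block, from log2(value + 1), keeping genes that reached 10 in 2 or more samples, with variances that follow the mean and Benjamini-Hochberg adjustment at 0.05 over all 17784 genes. The method was tested on simulated data. Length and GC content were taken from GENCODE M21 (GRCm38, the same assembly in a later annotation). The GC trend was removed per sample by local regression with a span of 0.3. Figures were drawn with matplotlib 3.10.9.

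The members and lists were chosen with earlier results of these data known. From each list were named all called genes or, where more than 4 were called, the 4 with the smallest adjusted p, and where none was called the 2 with the highest mean. Beside these, Nono, Sfpq, Pspc1, Srsf2, Dlk1, Rtl1, Sf1, Qk, A930011O12Rik, Gm26917 and the ribosomal rows were named after their values were seen. The alternatives tried were other pseudocounts and filters, TMM factors, median centring, a constant variance prior, the replicate block, removal of the GC trend and each sample left out. Leaving out samples for the ratios between neighbouring genes was chosen after seeing the data.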

Additional observations from a re-analysis of the deposited data

How the results depend on the processing

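Over the 8 RNAs and 15 alternatives, 100 of 120 differences kept their direction and side of the threshold, 7 passed it with the same sign and 13 changed sign, of which 2 (Rian with the GC trend removed, with and without the block) also passed it. Pseudocounts, filters on low values, TMM factors and median centring changed neither for any of the 8. All genes called (1514) became 0 with a variance prior that did not follow the mean (3586 at an unadjusted p under 0.05), 3613 (20.3%) with the replicate block, 211 with the GC trend removed, 1626 (9.27%) with both, 81 with GC content over all transcripts (chosen after seeing the data), and 674 to 2778 with 1 sample left out. Without objective day sample 1 or 2 there were 775 and 674, and without subjective day sample 1 there were 2778. The lower share of calls was 87.5%, 64.5% with the block (2331 lower, 1282 higher), 52.6% with the GC trend removed and 43.8% with both (712 lower, 914 higher). Of the 8 RNAs, none was called, 2 with the block (Malat1 and Snhg11), 1 with the GC trend removed (Rian), 3 with both (Neat1, Rian and Snhg11), and 0 to 2 with 1 sample left out. Genes called in the related lists numbered 21, then 0 with the other variance prior, 40 with the block, 2 with the GC trend removed, 13 with both, 1 with GC content over all transcripts and 7 to 30 with 1 sample left out (9 without objective day sample 1, 7 without sample 2). The labels give the replicate numbers without saying what they mark. The deviations of same-numbered samples correlated at 0.319 across genes, and the block gave a limma adjusted p of 0.0382 for Malat1 and 0.00834 for Snhg11. The log2 difference ranged from -0.74 to 0.012 for Malat1, 0.053 to 0.29 for Neat1, -0.32 to 0.15 for Meg3, -0.18 to -0.018 for Rian, 0.17 to 0.22 for Mirg, -0.26 to 0.29 for Miat, -0.19 to -0.021 for Gas5 and -0.57 to -0.16 for Snhg11 with 1 sample left out. With the GC trend removed, with and without the block, Rian was at 0.66, Miat at -0.083 and Gas5 at 0.16, and with GC content over all transcripts at 0.41, -0.084 and 0.20. The cause was not tested. A left-out sample leaves 1 in its condition, assumed to vary like the others.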

Other observations

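Other noncoding RNAs of this tissue reached adjusted counts near those of the genes described above. A930011O12Rik, a host of a miR-124 gene, had 37810 and 42630 at subjective day against 35359 and 36948 at objective day (log2 difference -0.15). Gm26917 was at 12898 and 14386 at subjective day against 15777 and 17098 at objective day (log2 difference 0.27, and 0.033 with the GC trend removed). The conditions did not overlap for either gene, as for 56.1% of all genes tested, and neither was called.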
